A study of Homo sapiens with 34 samples.

Results

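Broad H3K27ac domains are unbroken stretches of chromatin of at least 6 kb that carry H3K27ac, acetylation of lysine 27 on histone H3. They were taken here from the peak list of uninduced DLD1 (DNTCF) cells. Each peak row was reduced to its unique chromosome, start and end on the 22 autosomes and X, and regions whose end minus start was at least 6000 bp were kept. This rule gave 2503 domains among 78005 H3K27ac regions. Members were thus chosen by a measured value, their width in that list, so widths are a description, and their widths in the other H3K27ac list are given with the same rule applied the other way round.

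DLD1 is a colorectal adenocarcinoma cell line, and DNTCF is a derivative carrying a Tet-inducible transgene for a dominant negative TCF7L2. Induced cells were given 1 µg/mL doxycycline for 24 h, and uninduced cells carried the same transgene without doxycycline. Chromatin immunoprecipitation followed by sequencing was done for H3K27ac and for RNA polymerase II (Pol II), with 2 samples for each antibody and condition and 1 input sample for each condition. Both samples of a group share 1 peak list, which leaves 4 lists. Replicate error is therefore unknown, and every difference reported here is a description of these lists, with no test. No condition of doxycycline without the transgene was analysed here, so the drug and the transgene cannot be told apart.

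H3K27ac is found at active promoters and enhancers, and long stretches of it often lie over genes that define a cell type. TCF7L2 carries β-catenin to Wnt target genes in the intestine, where the pathway maintains the stem cells of the crypt and is kept active in most colorectal cancers. The dominant negative form occupies TCF sites without recruiting β-catenin. Pol II regions mark where the transcribing enzyme is held at starts, in gene bodies and at active enhancers.

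Several domains hold microRNA genes, and mature sequences of those that belong to families known from epithelium, the HOX clusters or growth control are shown because the domains are their local chromatin. Sequences are from RefSeq on GRCh38.p14, written 5′ to 3′, with the seed (bases 2 to 8) in capitals. The first group shares the seed AAUACUG, apart from miR-141-3p, and comes from the miR-200 family, which represses the ZEB factors and so maintains epithelial identity.
hsa-miR-200b-3p: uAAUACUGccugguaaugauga
hsa-miR-429: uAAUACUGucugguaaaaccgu
hsa-miR-200c-3p: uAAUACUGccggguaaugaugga
hsa-miR-141-3p: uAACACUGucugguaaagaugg

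The next group comes from the HOX clusters. miR-196a-5p and miR-196b-5p share the seed AGGUAGU, while miR-10a-5p has its own.
hsa-miR-196a-5p: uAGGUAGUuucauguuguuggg
hsa-miR-196b-5p: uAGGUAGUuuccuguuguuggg
hsa-miR-10a-5p: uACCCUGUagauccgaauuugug

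Both let-7 members below share the seed GAGGUAG and both miR-29 members share AGCACCA. let-7 represses growth genes such as RAS and HMGA2, and miR-29 represses collagens and DNA methyltransferases.
hsa-let-7a-5p: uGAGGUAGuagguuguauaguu
hsa-let-7b-5p: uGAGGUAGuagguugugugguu
hsa-miR-29a-3p: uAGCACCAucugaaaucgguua
hsa-miR-29b-3p: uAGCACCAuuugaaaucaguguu

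The remaining ones shown each have a seed of their own. miR-192 and miR-194 are abundant in intestine and liver, and miR-21 is a growth-promoting microRNA raised in many carcinomas.
hsa-miR-192-5p: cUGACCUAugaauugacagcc
hsa-miR-194-5p: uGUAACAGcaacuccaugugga
hsa-miR-21-5p: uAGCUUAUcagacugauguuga

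One promoter is shown, that of CDX2, the homeobox factor that sets intestinal identity, because it lies in a domain and holds a match to the TCF motif (CTTTGAA, in capitals). The window runs from 250 bases before to 50 bases after the start, at chr13:27969266-27969565 on the minus strand of GRCh38.p14. Its CpG ratio, observed over expected, was 0.844. CDX2 was picked for this match. The TCF motif, CTTTGAA or CTTTGAT, occurred in 4.29% of promoters in domains, against 5.49% of all promoters. It was in none of the promoters of BMP4 and the Wnt-linked genes CDCA7, EPHB3, TSPAN5, CD44, RNF43 and ETS2.
CDX2 promoter: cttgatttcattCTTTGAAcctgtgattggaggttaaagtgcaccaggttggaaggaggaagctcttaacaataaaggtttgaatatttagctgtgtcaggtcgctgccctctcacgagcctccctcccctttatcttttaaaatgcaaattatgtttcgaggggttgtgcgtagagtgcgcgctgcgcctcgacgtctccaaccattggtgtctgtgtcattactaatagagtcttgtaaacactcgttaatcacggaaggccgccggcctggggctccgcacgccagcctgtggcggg

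The domains made up 3.21% of uninduced H3K27ac regions but 17.03% of the sequence those regions cover, 23.3 of 136.6 Mb. Their median width was 7852 bp, with quartiles of 6720.5 and 10039.5 bp, against 1159 bp for all regions. Of the domains, 637 spanned 10 kb or more and 65 spanned 20 kb or more. A domain held a median of 9 summits (3 to 147). The highest fold enrichment in a domain, the authors' own value, had a median of 25.1 (8.48 to 48.7), against 6.35 over all regions of that list. The narrowest domain was 6001 bp and the widest region below the limit was 5996 bp. Of the 20 domains just inside the limit, 7 were split in the induced list, and of the 20 regions just outside it, 6 were.

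The widest domains lay over developmental gene clusters, microRNA hosts and a few regulators of growth. The HOXB domain, at chr17:48545044-48652785, was 107742 bp wide and ran from the start of HOXB2 past HOXB9, genes that set position along the body axis. The HOXA domain, at chr7:27109204-27196807, was 87604 bp wide and overlapped the genes from HOXA3 to HOXA13, some of them only in part. Next came the let-7 host MIRLET7BHG at chr22:46035988-46115779 (79792 bp) and the miR-29 host region with LINC-PINT at chr7:130872689-130948508 (75820 bp). AXIN2, the Wnt target that feeds back on the β-catenin destruction complex, lay wholly inside a domain of 44673 bp. BMP4, a BMP ligand of the crypt, had one of 42072 bp. NR2F2, an orphan nuclear receptor, had one of 40904 bp, SLC2A1, the glucose transporter GLUT1, one of 39932 bp, and IL20RA, a receptor subunit for interleukins of the IL-20 family, one of 35381 bp. One of 35610 bp, at chr1:219739420-219775029, had no coding gene within 100 kb.

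A coding gene start lay in 726 domains (29.0%, 95% Wilson interval 27.3 to 30.8), against 13.5% of all uninduced H3K27ac regions. A further 989 (39.5%) lay in gene bodies only and 788 (31.5%) between genes, 218 of them over 100 kb from any coding gene. Such intervals here and below cover counting error only. Among domains of 20 kb or more, 32 of 65 held a gene start (49.2%, 37.5 to 61.1). In all, 918 coding genes started in a domain (4.6% of 19974), 1594 overlapped one (7.98%) and 173 lay wholly inside. Starts were known for 15812 of these genes, and for the others either end was counted. Domains also came in runs: 739 of them formed 321 groups with neighbours at most 12.5 kb away.

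Lists of epithelial, intestinal and Wnt-linked genes had many members under domains, and lists of markers of other tissues had few. Against the 7.98% of all coding genes that overlapped a domain, 14 of 30 Wnt and TCF pathway genes did, as did 14 of 30 intestinal and epithelial transcription factors and 14 of 30 epithelial junction, keratin and brush border genes. AP-1, immediate early and ERK feedback genes had 12 of 30, BMP and TGF-β genes 11 of 30, and ligands and receptors of the EGFR, Eph and Notch families 11 of 30. HOX genes had 20 of 39, which lay in 6 domains and so are not independent. None of the 3 genes of the guanylate cyclase C pathway did. Housekeeping genes had 4 of 20, among them GAPDH and EEF1A1. Longer genes meet a domain more easily, and gene length was not matched between the lists.

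Markers of a colorectal epithelial cell were present as labelled. Of 12 such markers, 8 overlapped a domain, among them CDH1, KRT8, KRT18, KRT19, CDX2 and CDH17, and 10 had their start in an H3K27ac region of any width in both conditions. The exceptions were GPA33 and CDH17, although CDH17 holds domains in its body. Of 20 immune, stromal and endothelial markers, 1 overlapped a domain, CD3E, a subunit of the T-cell receptor complex, and 5 in the induced list and 6 in the uninduced list had a start in any H3K27ac region. No marker of liver, muscle or neurons, of 20, overlapped a domain, and again 5 and 6 had a start in a region.

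**Figure D1:**
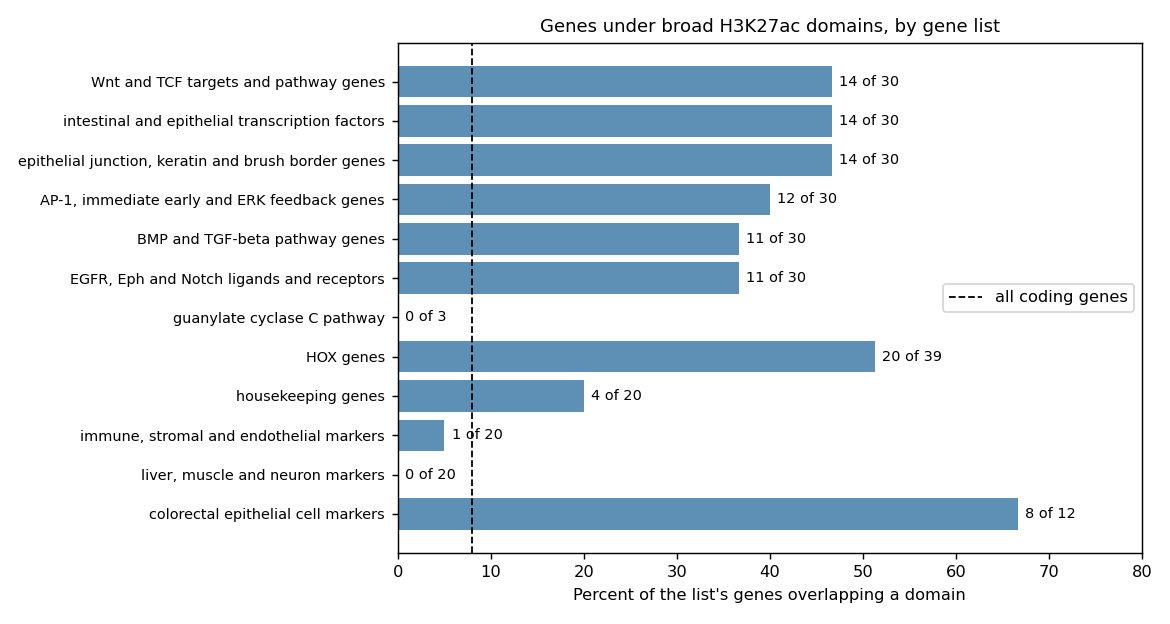
Percent of the genes of each list that overlap a broad H3K27ac domain of uninduced cells, with the counts beside the bars; the dashed line marks all coding genes, 7.98%. The Wnt, AP-1, BMP, EGFR, epithelial, colorectal, transcription factor and HOX lists lie between 36.7% and 66.7%, housekeeping genes at 20%, the guanylate cyclase C pathway at 0%, and the lists of other tissues at 5% or less.

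No domain was wholly without H3K27ac after induction. In the induced list, 1275 of 2503 domains (50.9%) were kept, meaning that a single region overlapped them with a width of 0.9 to 1.1 times theirs. Another 912 (36.4%) were split, meaning that 2 or more induced regions overlapped them, 257 (10.3%) were lengthened and 59 (2.4%) were shortened. Over regions of all widths, 32.2% were kept, 8.94% split, 25.6% lengthened, 18.8% shortened and 14.5% absent, so the mix of fates moves with width. Regions of 3 to 6 kb were between in their split share, at 20.3%, while their kept share, 54.8%, was above that of the domains. None of these 9410 regions was absent either.

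The same rule read from the other side gave fewer splits. Of 2321 regions of 6 kb or more in the induced list, 593 (25.5%) were split in the uninduced list, 1329 (57.3%) were kept, 337 were lengthened, 62 were shortened and none was absent. The background in that direction was 31.5% kept, 5.08% split, 36% lengthened, 15.1% shortened and 12.3% absent. Splitting of uninduced domains was thus more frequent than splitting of induced ones by 10.9 percentage points, while wide regions of either list were more often split than narrow ones.

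**Figure D2:**
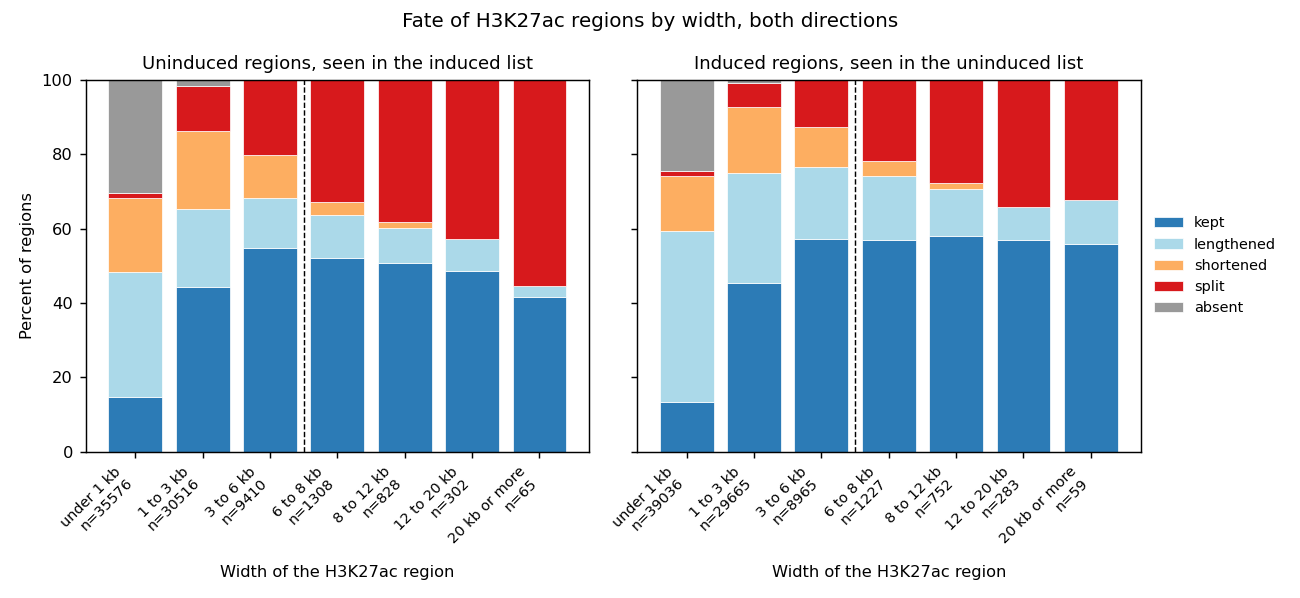
Percent of H3K27ac regions of each width class with each fate, for uninduced regions looked up in the induced list (left) and induced regions looked up in the uninduced list (right); n is the number of regions and the dashed line marks 6 kb. The split share grows with width on the left. On the right it grows up to 34.3% at 12 to 20 kb and is 32.2% at 20 kb or more. It is larger on the left, 36.4% against 25.5% for all regions of 6 kb or more.

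Most splits were thin. The 912 split domains held 1293 gaps with a median length of 171 bp (quartiles 114 and 276 bp), and 90.4% of the gaps were shorter than 500 bp. None of the gaps lay on the strongest summit of its domain, and 58.1% lay in the outer 25% at either end. Those outer parts together are as long as the middle part. Gaps were short beside a domain, and no expected share was computed for either count. In 634 domains there were 2 pieces, in 205 there were 3 and in 73 there were 4 or more. When regions at most 1000 bp apart were joined in both lists before the rule was applied, the share split was 14.6% of 4068 uninduced domains and 14.6% of 4005 induced ones, and the difference between directions was gone.

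In sequence covered, the domains were almost whole. Induced regions covered 96.4% of all domain sequence, and the median domain was covered over 98.1% of its length. Of the domains, 1832 (73.2%) were covered over at least 95%, and 1970 (78.7%, 77.1 to 80.3) still met an induced region of 6 kb or more. Only 61 were covered over less than 80%, against a background of 32.8% of regions of any width and 31 of the 2321 induced domains in the other direction. Median coverage was 96.6% at regions of 3 to 6 kb and 94.8% at those of 1 to 3 kb, so high coverage was not particular to domains. Where a single induced region met a domain, it was wider in 902 cases and narrower in 688.

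Fates differed by place. Domains at gene starts were split in 221 of 726 cases (30.4%, 27.2 to 33.9), those in gene bodies in 411 of 989 (41.6%, 38.5 to 44.7), and those between genes in 280 of 788 (35.5%, 32.3 to 38.9). Of domains at gene starts, 427 (58.8%) were kept. The HOXB domain was kept as a single region of 107626 bp, the MIRLET7BHG domain as one of 80639 bp, and the HOXA domain was cut into 3 pieces that together covered 99.7% of it.

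A few domains were covered by induced H3K27ac regions over only a small part. Coverage was under 60% in 9 domains, and in 2 induced domains looked up the other way round. The lowest coverage in that other direction was 20.3%. Among uninduced domains the lowest coverage was 20.8%, at chr16:55042442-55048503, where no coding gene lies within 100 kb. The authors' fold enrichment there was 6.22 in the induced list and 26.5 in the uninduced list. A domain in ATXN7L1 was covered over 45.2% of its 7404 bp, with a fold of 21.3 in the induced list and 17.3 in the uninduced list. At the other domains named in this paragraph the fold was lower in the induced list. A domain at chr8:126040879-126047776 was covered over 46.2%. One of 12107 bp beside PLEKHM1, an adaptor for lysosome fusion, was in 7 pieces covering 50.2%. One of 6226 bp at chr4:3874525-3880750 was covered over 51.04%, and one of 7015 bp at chr12:115154313-115161327 over 51.9%. On the same arm of chromosome 4, a domain of 14311 bp at chr4:3825528-3839838, with the adrenergic receptor gene ADRA2C as the nearest coding gene at 57.0 kb, was in 6 pieces covering 55.8%.

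The domain of ASCL2 was cut into most pieces of all. ASCL2 encodes the basic helix-loop-helix factor that maintains intestinal stem cells and is a Wnt target. Its domain, at chr11:2255778-2272069, was 16292 bp wide and lay in 9 induced regions that covered 90.8% of it. The longest of these, over the gene itself, held 32.3% of the domain. Other domains with many pieces were one near PRDM1, which encodes the repressor BLIMP1, and one in ABHD6, a lipid hydrolase, each in 6, and one in MGAT5, an enzyme of N-glycan branching, in 5.

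**Figure D3:**
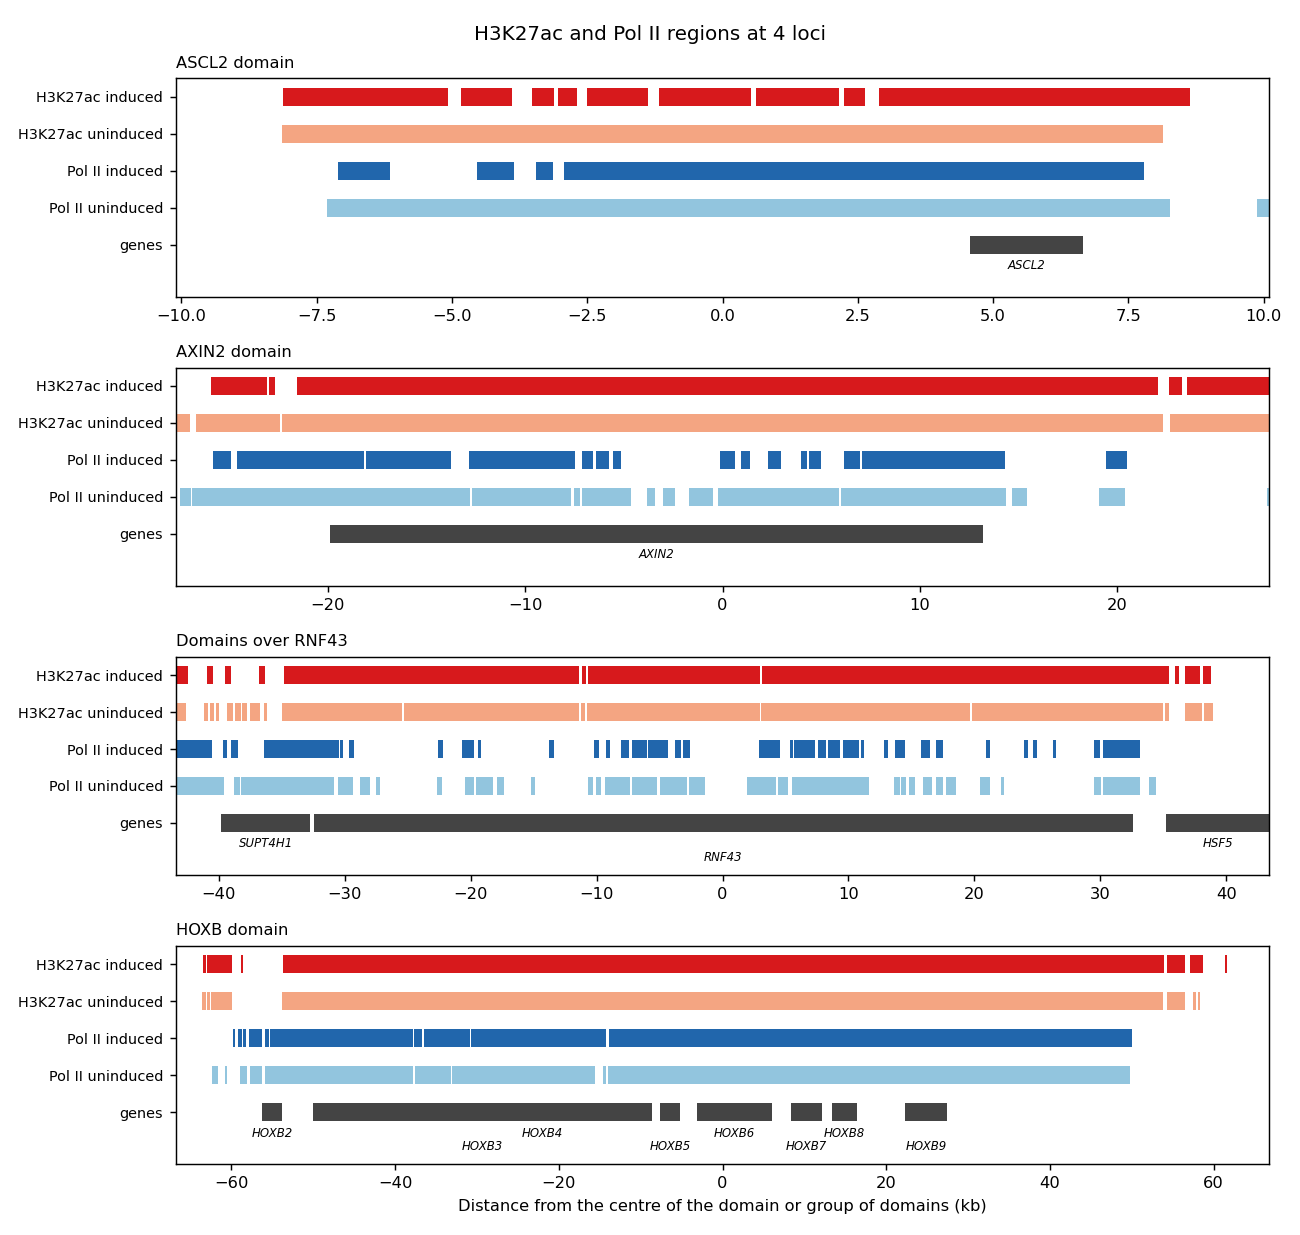
Regions of H3K27ac (red, induced; pale orange, uninduced) and Pol II (dark blue, induced; pale blue, uninduced) with coding genes (grey) at 4 loci, against distance in kb from the centre of the domain or group of domains. ASCL2 is broken into 9 H3K27ac regions in induced cells, AXIN2 and HOXB stay single, domains over RNF43 are joined, and Pol II regions are shorter over ASCL2, AXIN2 and RNF43 but not over HOXB.

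Pol II lay on almost all domains. In induced cells 2154 of 2503 domains (86.1%, 84.6 to 87.4) overlapped a Pol II region, against 2358 (94.2%, 93.2 to 95.1) in uninduced cells. Over H3K27ac regions of any width the shares were 34.7% in induced cells and 39.8% in uninduced cells. Regions of 3 to 6 kb had 67.9% in induced cells and 77.4% in uninduced cells, so occupancy climbed with width. Wider regions meet a Pol II region more easily, and this was not corrected for.

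The stretch of a domain covered by Pol II was shorter after induction. The median covered share was 22.7% in induced cells and 30.3% in uninduced cells. It was lower in the induced list in 2000 domains (84.4%) and higher in 346, of 2369 with Pol II in either list; over regions of any width with Pol II in either list, 74.6% were lower and 20.7% higher. The median difference was −6.12 percentage points over those domains and −6.29 over those regions of any width. The whole induced Pol II list was smaller, with 50665 regions and 56.7 Mb against 57247 regions and 70.9 Mb in the uninduced list, and the part of that overall difference in the domains was not tested. Only 15 domains lay more than 25 points below the median difference of all regions, where the background was 7.43%, and none lay as far above it. A given number of points is more bases in a wider region, and width was not matched. Without that median taken off, the share was lower by over 25 points in 55 of 2369 domains and 315 of 7434 regions of 3 to 6 kb.

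By place, domains at gene starts had the most Pol II, with a median covered share of 51.4% in induced cells and 58.3% in uninduced cells. Those between genes had 18.5% in induced cells and 27.2% in uninduced cells, and those in gene bodies had 10.6% in induced cells and 17.9% in uninduced cells. Pol II was listed in uninduced but in no part of induced cells at 145 domains in gene bodies, 68 between genes and 2 at gene starts. In that order, these were 16.4%, 9.08% and 0.276% of the domains with Pol II in uninduced cells. Over H3K27ac regions of any width at the same places, the shares were 23.2%, 22.04% and 0.967%. Complete loss was thus less frequent at domains than at regions of any width in each place. Width was not matched in this comparison.

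**Figure D4:**
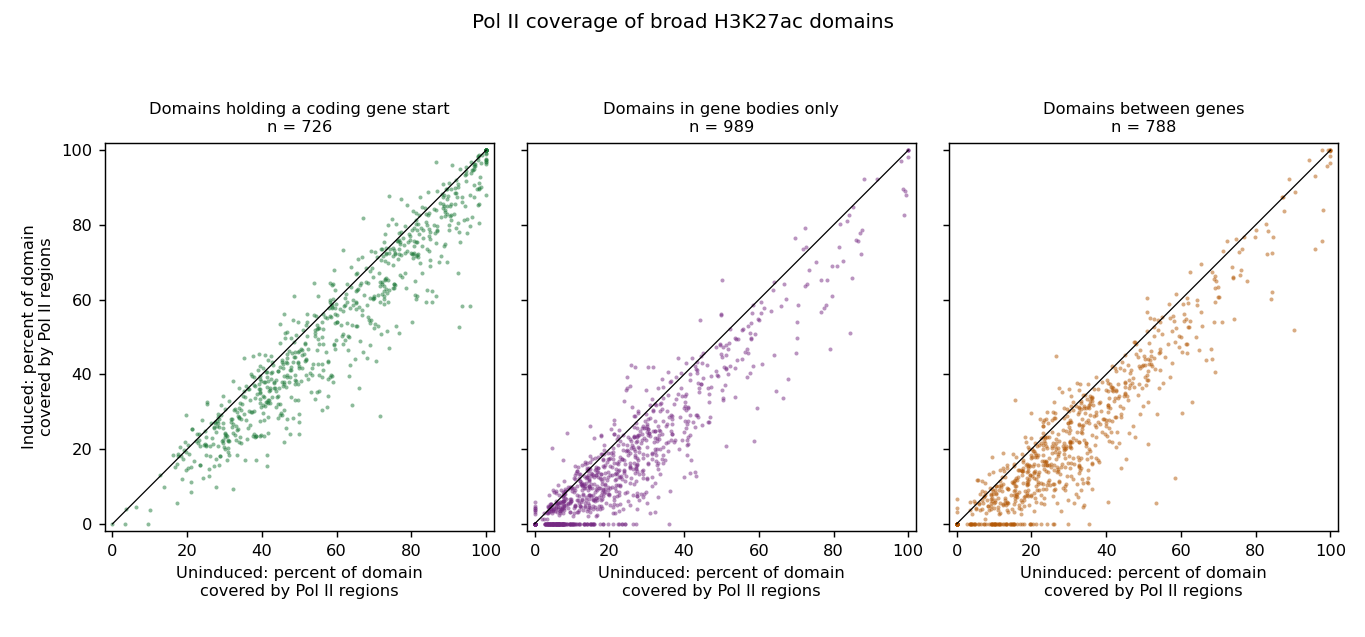
Percent of each domain covered by Pol II regions in induced cells (y axis) and uninduced cells (x axis), 1 point per domain, for domains with a coding gene start, in gene bodies only and between genes; the line marks equal values. Most points lie under the line in each panel, 2000 of 2503 in all.

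Among domains, loss of all listed Pol II was more frequent at split and shortened ones than at kept and lengthened ones. It occurred at 124 of 840 split domains that had it in uninduced cells (14.8%) and at 8 of 55 shortened ones (14.5%), against 71 of 1219 kept (5.82%) and 12 of 244 lengthened ones (4.92%). The background was 15.4% over regions of any width and 14.3% over those of 3 to 6 kb, so the split and shortened shares were near it. In uninduced cells the median Pol II covered share was 24.8% at split domains and 34.1% at kept ones. Neither this nor place was matched between fates. The Pol II share was lower after induction in most domains of each fate. It was lower in 55 shortened domains and higher in 0, lower in 754 split and higher in 77, lower in 1009 kept and higher in 208, and lower in 182 lengthened and higher in 61. Across the 2369 domains with Pol II in either list, the H3K27ac covered share and the Pol II difference had a Spearman correlation of 0.24, given as a description.

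The Wnt and TCF pathway genes had 30 domains, of which 12 were kept, 11 split, 5 lengthened and 2 shortened. Their Pol II share was lower after induction in 25, higher in 2 and equal in 3, with a median difference of −9.54 points, against −5.63 over all 2503 domains. The list was chosen with earlier results of these data known, so this is not independent evidence of a direction.

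AXIN2 had the widest of these, at chr17:65526099-65570771. It was kept as a single induced region of 43594 bp, and the H3K27ac fold was 35.5 in the induced list and 29.3 in the uninduced list. Pol II covered 61.2% of it in induced cells and 80.9% in uninduced cells, with a highest Pol II fold of 27.3 in the induced list and 37.4 in the uninduced list. So the acetylated stretch stayed and the Pol II stretch was shorter.

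The ubiquitin ligases RNF43 and ZNRF3, which remove Wnt receptors from the cell surface and are themselves Wnt targets, showed contrasting H3K27ac. RNF43 lay under 5 domains that became 3 induced regions, because gaps between neighbours closed: 4 were lengthened and 1 kept. All 5 had a lower Pol II covered share, and the largest difference was at chr17:58374226-58387962, with 38.9% in induced cells and 67.7% in uninduced cells. ZNRF3 had 5 domains in its body, of which 3 were split, 1 shortened and 1 kept. The widest of them, 33521 bp, had Pol II over 5.1% in induced cells and 21.9% in uninduced cells.

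ASCL2 had Pol II over 77.8% of its domain in induced cells and 94.9% in uninduced cells. NKD1, a Wnt feedback inhibitor that binds Dishevelled, had a domain of 11477 bp that was split in 5 with 84.9% covered, and Pol II over 4.28% in induced cells and 10.4% in uninduced cells. TNFRSF19, a TNF receptor family member and Wnt target, lost all listed Pol II from a domain of 7355 bp that had 24.1% in uninduced cells, though its H3K27ac was kept. ETS2, an ETS factor, kept all 3 of its domains, and Pol II on the one farthest from its start covered 5.59% in induced cells and 30.2% in uninduced cells. TSPAN5, a tetraspanin, had 4 domains, all split, and 3 of them had no Pol II in either list.

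Among other Wnt-linked genes, the direction was mixed. MYC, the growth regulator, kept its domain of 8868 bp, with Pol II over 54.1% in induced cells and 60.1% in uninduced cells. CCND1, which encodes cyclin D1, had a domain of 13974 bp with Pol II over 93.8% in induced cells and 96.0% in uninduced cells. EPHB3, an Eph receptor of the crypt base, was one of the 2 cases with a higher share, at 45.04% in induced cells and 42.3% in uninduced cells. The other was a domain in TCF7L2 itself, of 11552 bp, with 33.0% in induced cells and 23.9% in uninduced cells. The transgene is a form of TCF7L2, and reads from it cannot be told apart from the gene's own in these lists.

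**Figure D5:**
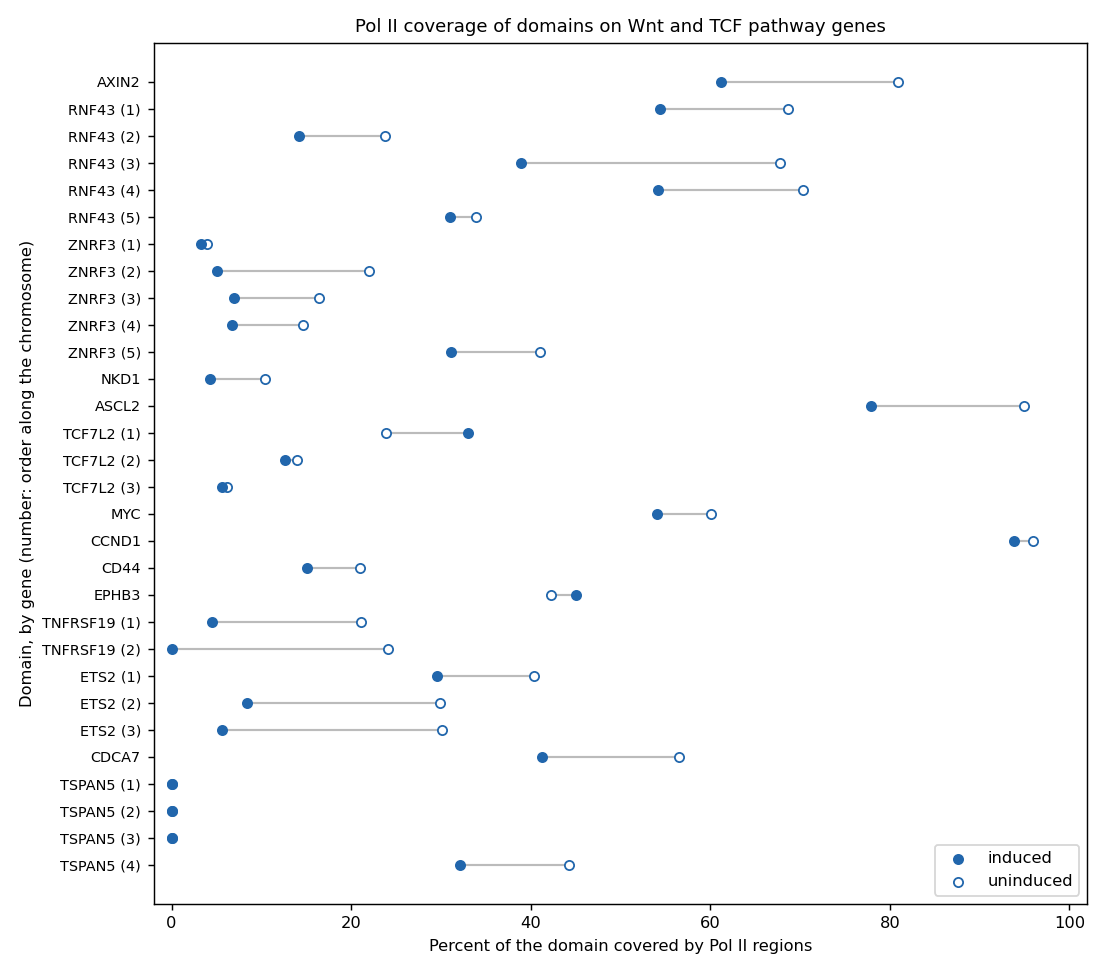
Percent of each domain covered by Pol II regions in induced (filled) and uninduced (open) cells for the 30 domains on Wnt and TCF pathway genes; a number after a gene gives the order of its domains along the chromosome. The induced value is lower in 25 domains and higher in 2, on TCF7L2 and EPHB3.

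AXIN2 also stood in the densest run of domains around any coding gene. Within 250 kb of it on either side lay 17 domains that together span 221.0 kb; the median coding gene had none, and of 19974 coding genes none other had as many. The window was chosen after these values were seen. Of the 17, 10 were split, 6 kept and 1 shortened, where 36.4% of all domains were split. Pol II coverage was lower after induction in 16 and 0 in both lists in the other one, where 84.4% of all domains with Pol II were lower. The median over the 17 domains was 15.2% in induced cells and 33.3% in uninduced cells. The shortened domain, 90.9 kb from AXIN2 at chr17:65431266-65437678, was 4195 bp long in the induced list against 6413 bp in the uninduced list. Its Pol II share was 9.03% in induced cells and 33.3% in uninduced cells. In the body of CEP112, a centrosomal protein gene next to AXIN2, the domain at chr17:65729187-65735496 had no Pol II in induced cells and 36.1% in uninduced cells.

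Other Wnt genes lacked a domain. LGR5, the R-spondin receptor that marks crypt stem cells, had as its widest H3K27ac region one of 4206 bp in induced cells and 4505 bp in uninduced cells. SP5, a Wnt-induced repressor, had one of 5788 bp in induced cells and 5789 bp in uninduced cells, just under the limit. GUCA2A, which encodes the guanylate cyclase C ligand guanylin, had one of 2168 bp in induced cells and 3122 bp in uninduced cells. GUCY2C, the receptor, had one of 2713 bp in induced cells and 2949 bp in uninduced cells. The domain closest to GUCA2A lay 168.7 kb away at the start of FOXJ3, a forkhead factor gene, and was kept, with Pol II over 47.1% in induced cells and 74.1% in uninduced cells.

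Intestinal and epithelial transcription factors had 19 domains, of which 4 were kept, 8 split and 7 lengthened. Their median Pol II difference was −2.60 points, with 13 lower and 6 higher. The CDX2 domain, at chr13:27952539-27973205 and thus around the promoter shown above, was 20667 bp wide and in 2 pieces covering 99.0%. Pol II covered 77.0% of it in induced cells and 79.7% in uninduced cells. FOXA1, a pioneer factor of gut endoderm, had its domain of 11688 bp inside an induced region of 27033 bp. ELF3, an ETS factor of differentiated epithelium, was lengthened to 9862 bp, against 8959 bp in uninduced cells, and Pol II covered 87.7% in induced cells and 73.9% in uninduced cells. EHF, a related ETS factor, had 2 domains joined into 1 induced region of 15797 bp. HNF4A had no domain; its widest region was 4094 bp in induced cells and 3948 bp in uninduced cells.

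Epithelial structural genes had 18 domains, with 8 kept, 6 split and 4 lengthened and a median Pol II difference of −2.59 points. CDH1, which encodes E-cadherin, had a domain of 12267 bp at its start that became part of an induced region of 16466 bp. The keratin gene KRT19 had one of 7369 bp, lengthened to 11501 bp in induced cells, with Pol II over 88.7% in induced cells and 91.6% in uninduced cells. The tight junction gene CLDN4 kept its domain, with 63.4% in induced cells and 63.9% in uninduced cells.

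AP-1 and ERK feedback genes had 15 domains, 9 of them kept, 4 split and 2 lengthened. The Pol II covered share was lower after induction in all 15, where it was lower in 84.4% of all domains with Pol II. Their median difference was −7.42 points, against −6.12 over the 2369 domains with Pol II in either list. DUSP6, a phosphatase that inactivates ERK, kept 15834 bp of domain, with Pol II over 75.5% in induced cells and 93.1% in uninduced cells. IER3, an immediate early gene, lay in a kept domain with FLOT1 that had 48.3% in induced cells and 61.7% in uninduced cells. ZFP36, which promotes mRNA decay, had 95.8% in induced cells and 97.1% in uninduced cells. The highest Pol II fold at DUSP6 was 32.6 in the induced list and 22.5 in the uninduced list. In the same order it was 45.8 and 43.9 at ZFP36, and 38.9 and 46.1 at IER3.

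BMP and TGF-β genes had 17 domains, with 8 kept, 6 split and 3 lengthened and a median Pol II difference of −5.49 points. The BMP4 domain was in 2 pieces covering 99.3%, with Pol II over 50.4% in induced cells and 54.3% in uninduced cells. SMAD7, the inhibitory SMAD, had 2 domains that were joined into an induced region of 34668 bp. The domain with GDF15, a stress-induced TGF-β family ligand, was 31075 bp wide and in 4 pieces. EGFR, Eph and Notch genes had 16 domains, with 10 kept, 5 split and 1 lengthened, and a median difference of −3.65 points. LFNG, a modifier of Notch receptors, had the largest of these differences, with 42.7% in induced cells and 60.9% in uninduced cells.

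The 6 HOX domains had a median difference of −4.32 points, and HOXB had 95.6% in induced cells and 94.6% in uninduced cells. The 4 domains at housekeeping genes had −11.2 points. EEF1A1, a translation elongation factor, had 80.6% in induced cells and 98.2% in uninduced cells, and GAPDH had 100% in both. A median difference of the size seen at the Wnt domains was therefore also present at these 4 domains, all of which hold a gene start. Place was not matched between the lists, and the other housekeeping genes had no domain.

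The largest Pol II differences lay elsewhere. The domain nearest to ADRA2C had Pol II over 5.6% in induced cells and 53.4% in uninduced cells. One beside IGFL4, of 6061 bp, had 12.4% in induced cells and 58.3% in uninduced cells. The domain at the start of PLEKHM1 had 28.7% in induced cells and 71.6% in uninduced cells. The one holding the starts of NSMF and PNPLA7 had 52.8% in induced cells and 92.8% in uninduced cells, and was in 4 pieces. The domain nearest to KDM7A, a histone demethylase, had 51.9% in induced cells and 90.2% in uninduced cells, and that at GTF3A, the factor for 5S RNA genes, had 58.4% in induced cells and 95.7% in uninduced cells. Induced H3K27ac regions covered 55.8% to 92.5% of these 6 domains.

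The largest gains in Pol II were smaller. At chr12:13374386-13380510 it covered 44.95% in induced cells and 26.5% in uninduced cells. A domain near PPL, the desmosomal plaque protein periplakin, had 33.0% in induced cells and 15.6% in uninduced cells, and one in KCNK5, a potassium channel, had 42.4% in induced cells and 25.9% in uninduced cells. GLI2, a Hedgehog pathway factor, had one with 24.2% in induced cells and 8.56% in uninduced cells. Domains in TMEM184B and ST3GAL4, a sialyltransferase, gained 15.6 and 15.1 points.

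The microRNA genes shown at the start stayed within H3K27ac regions, although several of their domains were split. In all, 56 of 1558 hairpins of the table (3.59%) lay in 44 domains. All 56 lay in an H3K27ac region in induced cells, and 43 lay in a Pol II region in induced cells, against 46 in uninduced cells. The MIR200B and MIR429 domain, 14060 bp on chromosome 1, was kept, with Pol II over 87.5% in induced cells and 87.0% in uninduced cells. The MIR200C and MIR141 domain, 12327 bp on chromosome 12, was in 2 pieces, with 94.8% in induced cells and 96.1% in uninduced cells. MIR192 and MIR194-2 shared a domain of 8020 bp on chromosome 11 with Pol II over 76.6% in induced cells and 69.8% in uninduced cells.

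MIR21 lay in a domain of 21309 bp overlapping VMP1 that was kept, and Pol II covered 57.8% of it in induced cells against 77.5% in uninduced cells. The MIR29A and MIR29B1 domain had 64.9% in induced cells and 77.8% in uninduced cells, and the let-7 domain had 90.8% in induced cells and 92.5% in uninduced cells. The same mature miR-194-5p, miR-196a-5p, let-7a-5p and miR-29b-3p also come from other loci, and levels of the microRNAs were not measured in these lists.

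Promoters in domains were rich in GC, like those in other H3K27ac regions. For 699 genes with a promoter in the RefSeq table, the median GC content was 66.7% and the median CpG ratio 0.824; in regions of 3 to 6 kb the ratio was 0.868, and at starts with no H3K27ac it was 0.359. A CpG ratio over 0.6 was found in 78.4% of promoters in domains and in 86.9% in regions of 3 to 6 kb. The TCF motif, CTTTGAA or CTTTGAT on either strand, occurred in 4.29% of promoters in domains (3.02 to 6.06), against 3.08% in regions of 3 to 6 kb, 3.88% in narrower regions and 8.27% at starts with no H3K27ac. Over all 15812 promoters it was 5.49%. The AP-1 motif TGANTCA occurred in 5.01% of promoters in domains against 5.76% of all, the ETS motif GGAAGT in 25.8% against 24.8%, and the KLF motif CACCC in 64.2% against 62.9%. These windows cover only 300 bases around a start, so most of a domain was not searched.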

How the data were processed

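H3K27ac and Pol II peak lists of DLD1 (DNTCF) cells were analysed; the 24 RNA-seq samples were not analysed here. Per the labels' protocols, sequencing gave 40 to 55M single reads per sample, each of 75 bp. Per the submitters' processing notes, which give no role or order, the tools included MACS2 2.1.1.20160309, deepTools 3.5.0, SAMtools 1.10 and BWA 0.7.17-r1188, with builds hg19 and hg38. Positions are on GRCh38: chromosome 17 regions reach 83228308, past its end in GRCh37. The deposited lists give, per summit, a fold enrichment (a ratio over local background) and a −log10 q made by the authors' peak caller. These depend on depth and input, so folds of both lists are at most printed side by side, and no change in fold was computed between lists. The sources used here do not state the caller's settings, or whether reads of both samples were pooled.

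Rows were collapsed to unique regions, with the highest fold and −log10 q of their summits. Overlap meant at least 1 bp, checked against bedtools 2.31.1. As a check of the code, the fate rule was run on simulated regions built to fit each fate, and recovered 100% of 10153. Regions with a close neighbour were left out, so joined regions were not checked. Covered shares are percentages of a domain's length. Genes, starts, microRNAs and promoters came from RefSeq tables of GRCh38.p14; no genome sequence was used, so motifs at summits were not searched. Intervals are Wilson 95% intervals. Python 3.11.15, pandas 2.3.3 and matplotlib 3.10.9 were used. Alternatives varied the width limit, the −log10 q, the joining of regions, the length of pieces and the gene window.

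The members and gene lists were chosen with earlier results of these data known. Domains were named by rule: the 10 widest, the 6 with lowest H3K27ac coverage, largest gain of width, most pieces, largest Pol II loss and largest Pol II gain, the 5 widest with no Pol II, 9 genes of interest, and up to 4 genes per list at the widest domains. Some genes that this rule names are not reported here. Further members of the lists were named after their values were seen.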

Additional observations from a re-analysis of the deposited data

How the results depend on the processing

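Both samples of a group share 1 peak list, so leaving out a replicate was not run. No paired analysis was possible because the shared lists carry no replicate. Of 164 alternative values, 103 kept within 1.5 times of the reported count and 61 moved beyond it. Only the size of each count was compared, and a reversal of direction was not scored. The cause of the moves was not tested, except that a narrower or wider limit changes the number of domains.

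With a limit of 5000 bp (3902 domains), 2025 were kept (51.9%), as were 2089 of 3651 reciprocal ones (57.2%). Of the 3902, 3541 had Pol II in uninduced cells (90.7%) and 1596 lay in gene bodies (40.9%). The Pol II covered share was higher after induction in 563. With 8000 bp (1195 domains), 595 were kept (49.8%) and 482 split (40.3%). In the reciprocal direction 631 (57.7%) and 324 (29.6%) of 1094 were. Of the 1195, 1086 had Pol II in induced cells (90.9%) and 1161 in uninduced cells (97.2%). The Pol II covered share was lower after induction in 1013 and higher in 142. Gene starts lay in 392 (32.8%), and 437 lay in gene bodies (36.6%). With only regions of −log10 q of at least 10 in the other list, 607 of 2503 domains were split (24.3%). In the reciprocal direction 392 of 2321 were (16.9%). Joining regions within 500 bp gave 2169 of 3488 kept (62.2%) and 2130 of 3386 in the reciprocal direction (62.9%). Within 1000 bp, 2567 of 4068 (63.1%) and 2564 of 4005 (64%) were kept, with 594 of 4068 split. Counting all genes of the table, 1091 domains held a gene start.

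Within 10 kb of a domain lay 2 immune and stromal and 1 liver, muscle and neuron markers, against 8.54% of all coding genes. At 5000 bp these lists had 2 and 1, and housekeeping genes 8, against 11.6% of all coding genes. At 8000 bp housekeeping genes had 1, intestinal factors 9 and EGFR, Eph and Notch genes 7, against 4.34% of all coding genes.

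Peak lists carry no read depth, so signal below the caller's threshold was not seen. Covered shares measure extent, not height.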

Other observations

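Several domains gained most width by joining. At a run of 5S RNA gene copies near RHOU on chromosome 1, 3 domains of 9610, 13234 and 18327 bp became 1 induced region of 41268 bp, with Pol II over 95.1% to 100% of each in induced cells and 96.8% to 100% in uninduced cells. These genes are near-identical copies, so reads there cannot be placed with certainty. A domain of 15139 bp in SHB, an adaptor of receptor tyrosine kinases, lay in an induced region of 41169 bp. A domain of 7889 bp near NANOS3 was joined with that of the MIR23A, MIR27A and MIR24-2 hairpins into an induced region of 27209 bp. In all, 29 induced regions joined 59 domains.

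Wide domains without any listed Pol II also occurred. Among the widest were one of 14948 bp in NCAPG2, a condensin II subunit gene, one of 13761 bp in TSPAN14, a tetraspanin gene, and one of 12615 bp in RASSF3. Those in TSPAN14 and RASSF3 were kept as single regions, and that in NCAPG2 was split. In all, 134 domains overlapped no Pol II region in either list. The largest runs of domains with neighbours at most 12.5 kb apart held 6 each. One ran over SUPT4H1 and RNF43, and the other, at chr14:54084332-54152658, overlapped no coding gene.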
